A study of Gallus gallus with 24 samples.

Results

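The comparison described here sets the cecum of Fayoumi chicks against the cecum of Leghorn chicks 16 h after challenge. It rests on 4 of the 24 arrays of the series, 2 for each line, chosen by the line, tissue and time in their titles. All birds were 1 day old when challenged. Each array was hybridized with RNA of 3 birds given SE in its first channel and RNA of 3 unchallenged birds of the same line in its second, so every value is a ratio of 2 small pools. The labels call the Leghorn line G-B1 and do not spell out SE, an abbreviation that poultry research commonly uses for Salmonella enterica serovar Enteritidis. They also do not say whether the array titled as a replicate held other birds, the same RNA, or the same RNA with the dyes exchanged. A limma p-value given here thus reflects how far arrays of a group lie apart, and that spread may be technical. It was pooled over 23 arrays of all lines and both tissues, not taken from the 4 compared arrays alone.

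The ceca are the paired blind pouches at the junction of the small and large intestine of birds. They ferment digesta, hold the densest gut flora of the chicken and carry the cecal tonsils, a large lymphoid tissue of the gut. Salmonella colonizes the ceca of newly hatched chicks readily, since their gut flora is not yet established, and the epithelium and the immune cells beneath it respond with chemokines, cytokines and antimicrobial proteins. Fayoumi is an old Egyptian breed and Leghorn an egg-laying breed of Mediterranean origin, and the breeds are often set against each other in studies of resistance to infection. Which line responds with which genes is what the comparison could address, but the deposited table names its probes by clone and plate, so probes and clone groups, not genes, carry the results. The defining markers of the tissue could not be looked up for the same reason.

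A value is the centred log2 ratio of a probe: the deposited ratio less the median of the 15609 probes on that array. The base of the logarithm was inferred. In limma's test no probe differed between Fayoumi and Leghorn at an adjusted p below 0.05 (0 of 15609, or 0%), and 916 probes (5.87%) had an unadjusted p below 0.05. Of the 916, 789 (5.05% of all) had higher ratios in Fayoumi and 127 (0.814%) had higher ratios in Leghorn. The smallest adjusted p was 0.300. In a fit to the 4 compared arrays alone, 492 probes had an unadjusted p below 0.05 and again none passed. The probe differences ran from -4.04 to 4.54, with 135 probes above 2 and 31 below -2, and their median was 0.03. The highest difference was that of C0004102_M4, named for its size after its values were seen. It had -3.51 and 4.71 on the Fayoumi arrays and -4.38 and -3.49 on the Leghorn arrays, so its lines overlapped and its value rests on 1 array. The 95% interval of a probe's difference had a median half-width of 1.24 before any adjustment for the number of probes. At the adjusted threshold none of the 166 probes with a difference beyond 2 in size passed, with 2 arrays in each line. Without the Leghorn replicate array, the count was 63 (0.404%), all with higher ratios in Fayoumi by 2.57 to 4.70. It was 0 without the first Leghorn array and without either Fayoumi array.

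Which channel is the numerator of the ratios was not settled, and the Leghorn arrays did not run the same way. Over all probes the 2 Leghorn arrays correlated at Pearson's r = -0.31, while the 2 Fayoumi arrays correlated at 0.54. The Leghorn replicate array ran with the Fayoumi arrays, at 0.51 with the first and 0.67 with the replicate. The first Leghorn array ran against both, at -0.30 and -0.46. These are correlations across probes of single arrays, and probes are not independent replicates. A probe had the same sign on both Fayoumi arrays in 67.1% of cases and on both Leghorn arrays in 34.2%. With the sign of the Leghorn replicate array turned, 1946 probes differed between the lines in limma's test (1893, or 12.1%, with higher ratios in Fayoumi and 53, or 0.34%, in Leghorn). With the signs of both Leghorn arrays turned 475 differed (3.04%), all with higher ratios in Fayoumi. With the sign of the first Leghorn array turned 0 differed, the smallest adjusted p was 1.00, and 377 probes had an unadjusted p below 0.05.

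The 4 arrays also differed in their spread and in their control spots. The deposited medians were -1.04 and 0.56 in Fayoumi and 0.80 and -2.05 in Leghorn, before centring. The median absolute deviation was 0.48 on the first and 0.71 on the replicate Fayoumi array, and 0.52 on the first and 0.94 on the replicate Leghorn array, so the lines overlapped in spread and the replicate array was the wider one in each. Control spots named for plant genes had centred medians of -0.13 and -0.40 on the Fayoumi arrays, 0.49 on the first Leghorn array and -0.77 on the Leghorn replicate array. The first Leghorn array was thus the only one of the 4 with plant-named spots above the median probe. With their median as a covariate of each array, a setting added after seeing the data, 225 probes differed between the lines, 218 with higher ratios in Fayoumi. Each array was on a slide of its own, so slide and array cannot be told apart.

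**Figure D1:**
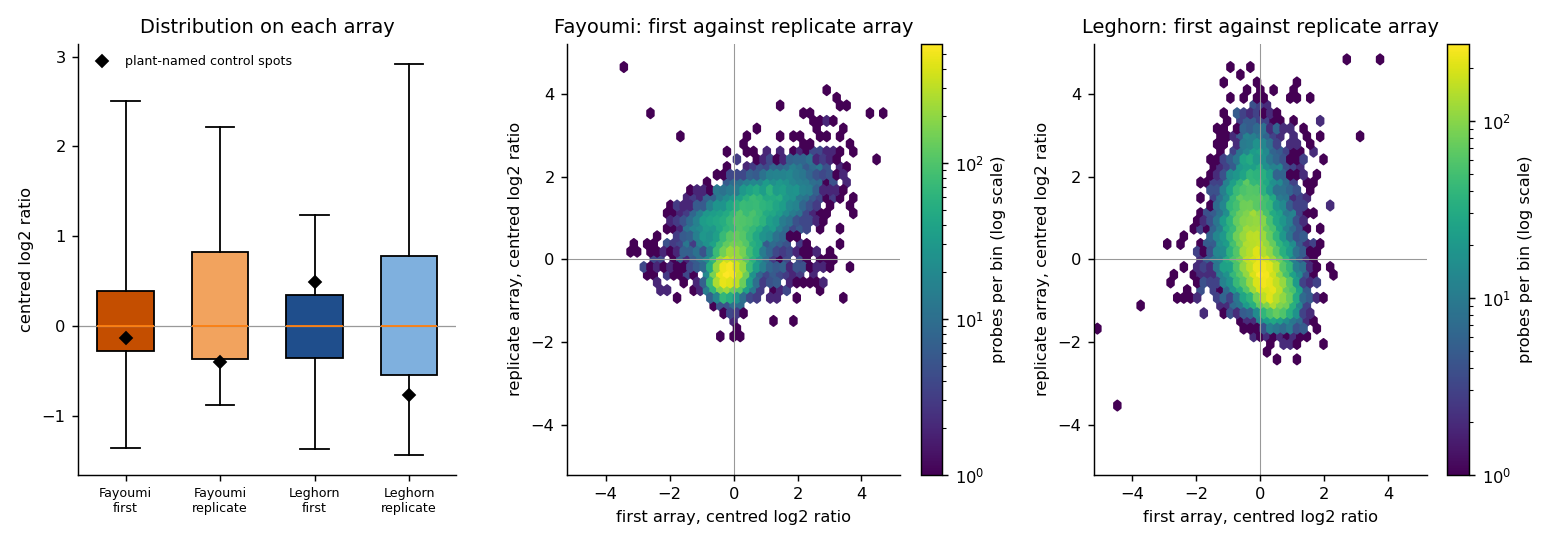
Centred log2 ratios of the 15609 probes on the 4 cecum arrays at 16 h. Left: boxes span the lower to the upper quartile, lines in them mark the median, whiskers reach the 1st and 99th percentiles, and diamonds mark the median of the plant-named control spots, which is above 0 on the first Leghorn array (0.49) and below 0 on the other 3. Middle and right: first against replicate array of each line, with colour for the number of probes in a bin on a log scale. The Fayoumi arrays rise together (r = 0.54) and the Leghorn arrays do not (r = -0.31).

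The probes that departed from 0 in Fayoumi show how the Leghorn arrays split. Against 0, 499 probes (3.20% of all) passed limma's test with positive values in Fayoumi cecum at 16 h (adjusted p below 0.05). The Leghorn values of these probes entered the choice only through the spread that all groups share, not through the mean tested. Probes whose Leghorn arrays lay far apart thus passed less readily. On the Leghorn replicate array 472 of the 499 (94.6%) lay above 0, with a median log2 ratio of 1.22 and quartiles of 0.65 and 1.90. On the first Leghorn array 100 of them (20.0%) lay above 0, with a median of -0.39 and quartiles of -0.70 and -0.06. By the centring, 50% of all probes lie above 0 on each array. The same probes had medians of 2.06 and 1.87 on the Fayoumi arrays that chose them. Thus the probes with high ratios in Fayoumi had high ratios on 1 Leghorn array and low ratios on the other.

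At 2 h the 499 probes stood near or below 0 on the Fayoumi arrays themselves, with medians of -0.16 on the first array and -0.28 on the replicate array. Leaving out either 16 h Fayoumi array leaves the group with a single array, so that fit cannot show whether the set rests on both.

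**Figure D2:**
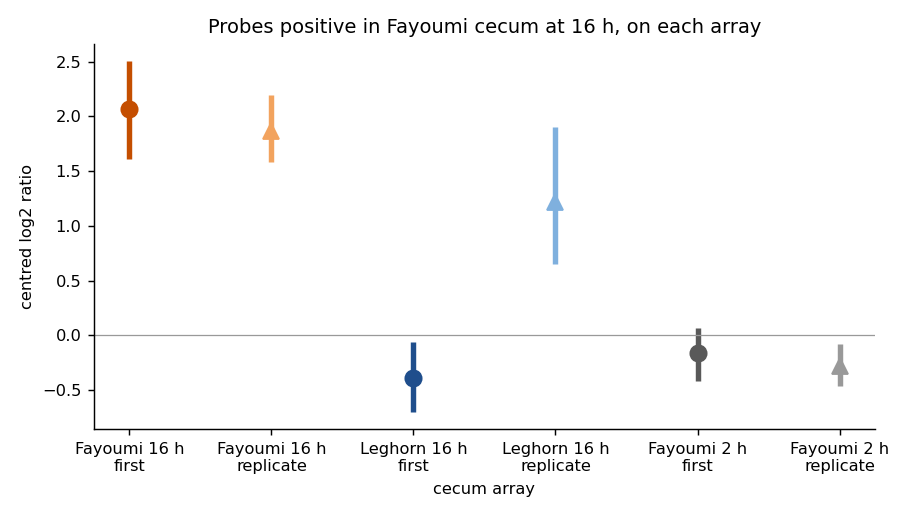
The 499 probes that were positive in Fayoumi cecum at 16 h, on single arrays. Markers give the median and bars the lower and upper quartile of the centred log2 ratio, with circles for the first and triangles for the replicate array of each group. The probes were chosen on both Fayoumi arrays at 16 h. They sit at a median of 1.22 on the Leghorn replicate array and -0.39 on the first Leghorn array.

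Probes whose lines did not overlap were counted next. The 2 Fayoumi arrays lay above both Leghorn arrays for 2366 probes (15.2%) and below both for 1572 (10.1%), which makes 3938 probes without overlap (25.2%). Of all 15609 probes, both Fayoumi arrays were positive and both Leghorn arrays negative for 529, and the reverse held for 532. These counts were lower than those with the same sign on all 4 arrays, 1179 positive and 913 negative. None of them was tested against what unrelated arrays would give, so they do not by themselves show a line difference. The probes named next are those of smallest unadjusted p without overlap, 8 for each direction and the first of each clone group. They are given as values, since none passed the adjusted threshold with all arrays and no covariate. Of the 20 named probes, 13 passed with the plant spots as a covariate, a setting added after seeing the data. In that setting 225 of all 15609 probes passed. The 17 clone probes among the 20 were chosen for small p-values on the same arrays, so this count is no separate support for them.

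Among the probes with higher ratios in Fayoumi, DKFZ426_9H18 had log2 ratios of 2.55 and 1.60 on the Fayoumi arrays and -0.89 and -0.61 on the Leghorn arrays. Its difference was 2.82 (95% interval 1.77 to 3.88, limma adjusted p = 0.300), the smallest unadjusted p of all probes. C0004104_C15 had 2.08 and 2.27 in Fayoumi and -1.45 and -0.96 in Leghorn, a difference of 3.37 (2.06 to 4.69). In both probes the lines lay on opposite sides of 0, and the Fayoumi arrays stood farther apart in the first (SD 0.68) than in the second (SD 0.13, n = 2).

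C0004108_J10 was the tightest, with 1.20 and 1.16 in Fayoumi (1.18 ± 0.03, SD, n = 2) and -0.78 and -0.67 in Leghorn (-0.72 ± 0.07, SD, n = 2). Pat-18_g6 had 3.34 and 1.56 in Fayoumi against -1.05 and -0.97 in Leghorn, with the larger spread on the Fayoumi side. C0004121_J10 had 1.49 and 1.55 in Fayoumi against -1.94 and -0.46 in Leghorn. These 5 probes were positive on both Fayoumi arrays and negative on both Leghorn arrays.

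The other 3 were positive on the Leghorn replicate array and negative on the first. C0004129_B1 had 3.75 and 2.58 in Fayoumi, -0.82 on the first Leghorn array and 1.11 on the Leghorn replicate array. DT40subNB_3B8 had 3.36 and 2.20 in Fayoumi, then -0.94 and 0.80 in Leghorn. DT40subNB_5D11 had 1.67 and 2.40 in Fayoumi, then -0.93 and 0.18 in Leghorn. For all 8 probes the first Leghorn array held the lowest of the 4 values, and the differences between the lines ran from 1.90 to 3.46. All 8 kept their direction with the signs of the Leghorn arrays turned singly or together, but not their size. The direction could not have changed, since each Fayoumi mean was positive and larger than the Leghorn mean under any choice of signs. With both turned, the difference of C0004121_J10 was 0.32, that of C0004108_J10 was 0.46 and that of C0004104_C15 was 0.97. In that setting 2 of the 8 passed limma's test, C0004129_B1 (3.31, adjusted p = 0.0254) and DT40subNB_3B8 (2.70, adjusted p = 0.0282). Of all 15609 probes 475 (3.04%) passed there. The 8 were chosen for small p-values on the same arrays, so the 2 passes are no separate support for them.

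In the opposite direction, C0004113_B19 stood out by size. Its log2 ratios were 3.73 and 4.77 on the Leghorn arrays and 0.43 and -0.01 on the Fayoumi arrays. Its difference of -4.04 (95% interval -5.82 to -2.25, limma adjusted p = 0.300) was the lowest of all 15609 probes. The highest ratio of the whole first Leghorn array and of the whole Leghorn replicate array was that of this probe. It also departed from 0 in Leghorn (mean 4.25 ± 0.73, SD, n = 2; limma adjusted p = 0.0301) and not in Fayoumi (limma adjusted p = 0.941).

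Only 2 other probes passed limma's test against 0 with positive values in Leghorn cecum at 16 h (3 such probes, 0.0192% of all). Both belong to those named here, which were chosen for a line difference on the same Leghorn arrays. The tests against 0 are thus no separate support for these probes. C0004125_O7 had 1.61 and 2.55 in Leghorn against -0.13 and 0.58 in Fayoumi (difference -1.85, limma adjusted p = 0.384; against 0 in Leghorn 0.0363). DT40subNB_7B5 had 1.79 and 2.94 in Leghorn against 0.61 and 0.58 in Fayoumi (difference -1.77, limma adjusted p = 0.458; against 0 in Leghorn 0.0363). A departure from 0 in 1 line and not in the other does not show that the lines differ, and the tests of the difference did not pass over the 23 arrays as modelled. With the plant spots as a covariate, a setting added after seeing the data, these tests did pass. The limma adjusted p-values were 0.0101 for C0004113_B19, 0.0137 for C0004125_O7 and 0.0147 for DT40subNB_7B5. In that setting 225 of all 15609 probes passed. These 3 were already chosen for their line difference on the same arrays, so their passing is no separate support.

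Pat_4A2 had 2.73 and 4.76 in Leghorn and -0.86 and 1.18 in Fayoumi, so its arrays spread by about as much in each line (SD 1.45 in Fayoumi and 1.44 in Leghorn, n = 2). Pat_8G10 had 1.52 and 2.73 in Leghorn and -0.42 and 0.87 in Fayoumi. C0004123_P24 was tight in both lines, with 1.05 and 1.01 in Leghorn (1.03 ± 0.03, SD, n = 2) and -0.39 and -0.48 in Fayoumi (-0.44 ± 0.06, SD, n = 2). Its 95% interval was -2.34 to -0.59, and its limma adjusted p was 0.445.

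C0004118_K8 had 2.18 and 1.41 in Leghorn and -0.42 and -0.32 in Fayoumi. C0004118_E19, from the same plate by its name, had 1.87 and 0.72 in Leghorn and -0.14 and -0.08 in Fayoumi. DKFZ426_16E7, the first of its clone group in this direction, had 0.28 and 1.16 in Leghorn and -0.44 and -0.11 in Fayoumi. Of these 9 probes, 4 were positive on both Leghorn arrays and negative on both Fayoumi arrays. Their direction depended on the sign given to the Leghorn arrays: with both turned all 9 had a higher mean in Fayoumi. In each, the Leghorn mean before turning was positive, and larger in size than the Fayoumi mean where that was negative.

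**Figure D3:**
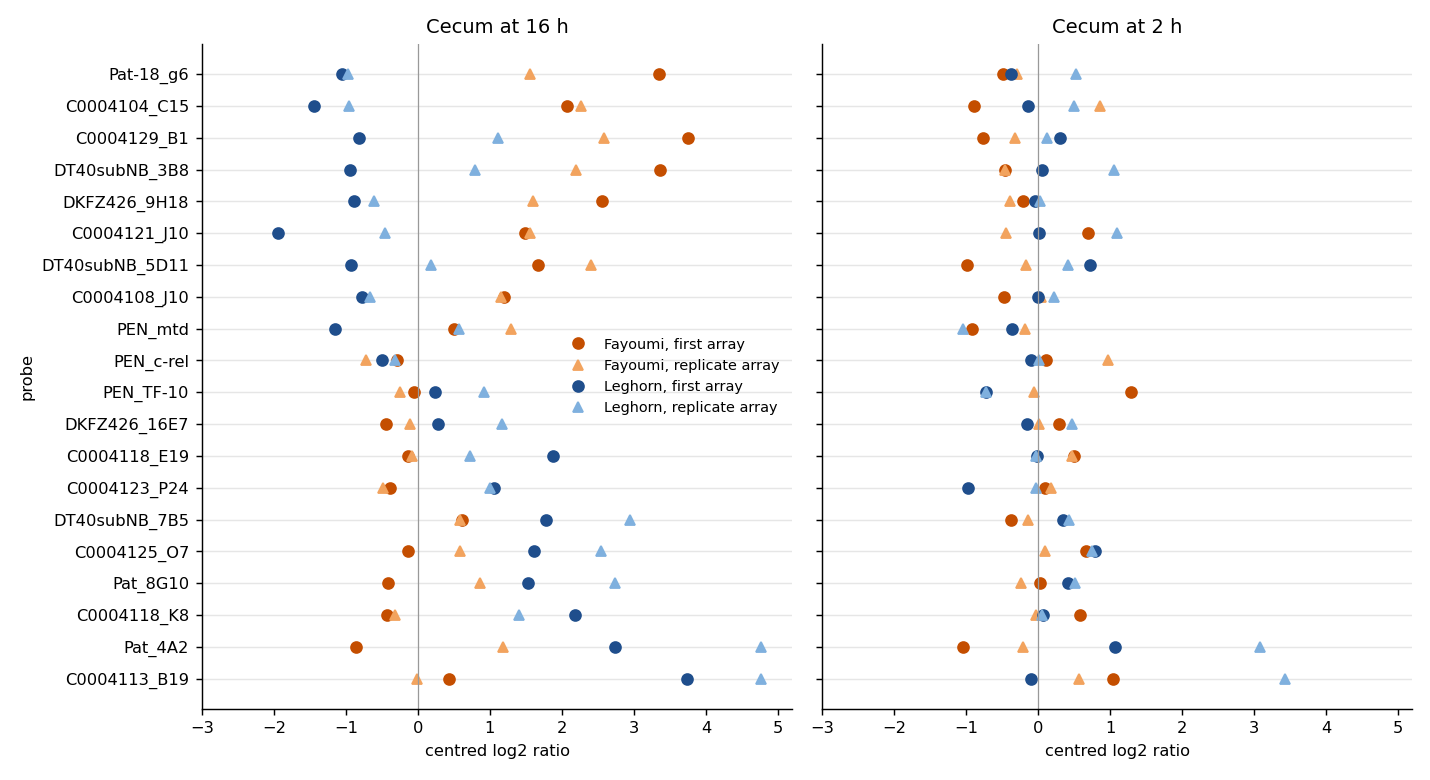
Centred log2 ratios of the 20 named probes on the single arrays of each line in cecum at 16 h (left) and 2 h (right), ordered by the difference between the lines at 16 h. Circles are first and triangles replicate arrays. At 16 h the lines do not overlap for the 17 clone probes, which were chosen for that, while C0004113_B19 at the bottom reaches 3.73 and 4.77 on the Leghorn arrays. At 2 h most values lie nearer 0, with the Leghorn replicate array at 3.43 for C0004113_B19 and 3.08 for Pat_4A2. The clone probes were chosen by their difference at 16 h, and array spread differed between the times.

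3 probes carry names with the prefix PEN in place of a clone number, and the sources used here do not say what their spots hold. PEN_c-rel, whose identifier contains the name of c-Rel, an NF-kB family transcription factor of lymphocytes, had -0.29 and -0.72 in Fayoumi and -0.50 and -0.32 in Leghorn. Its lines overlapped, with a difference of -0.09 (95% interval -1.12 to 0.93, limma adjusted p = 1.00). PEN_mtd had 0.51 and 1.30 in Fayoumi and -1.16 and 0.56 in Leghorn, which overlapped as well (difference 1.20, interval -0.07 to 2.46, limma adjusted p = 0.907). PEN_TF-10 had -0.05 and -0.25 in Fayoumi and 0.24 and 0.92 in Leghorn, without overlap (difference -0.73, interval -1.87 to 0.42, limma adjusted p = 1.00). Leaving out 1 of the 4 arrays gave differences of 0.34 to 2.06 for PEN_mtd and -1.07 to -0.38 for PEN_TF-10.

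By clone group, the DT40subNB clones had the largest share of probes with higher ratios in Fayoumi. Both Fayoumi arrays lay above both Leghorn arrays for 441 of the 1798 DT40subNB clones (24.5%), against 15.2% of all probes. The share was 16.9% of the 378 DKFZ426 clones (64), 14.1% of the 11447 C00041 clones (1611) and 12.6% of the 1983 Pat clones (250). In the opposite direction the shares were 8.12% of the DT40subNB, 5.82% of the DKFZ426, 11.1% of the C00041 and 6.45% of the Pat clones, against 10.1% of all probes. An unadjusted p below 0.05 with higher ratios in Fayoumi was found for 219 DT40subNB clones (12.2%) and for 5.05% of all probes. A B cell line of the chicken bears the name DT40, but where the DT40subNB clones came from is not stated.

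The medians of the clone groups on single arrays show which arrays carry these shares. The DT40subNB median was 0.26 and 0.69 on the Fayoumi arrays, -0.18 on the first Leghorn array and 0.63 on the Leghorn replicate array. The DKFZ426 medians in the same order were 0.16, 0.69, -0.15 and 0.48, and the Pat medians 0.01, 0.86, -0.13 and 0.70. The C00041 medians were -0.02, -0.15, 0.06 and -0.19. In the 3 smaller groups the first Leghorn array was the lowest and the replicate arrays of both lines were the 2 highest, so the lines overlapped in every clone group. C00041 holds 73.3% of the probes, and centring ties its median near 0 and opposite to that of the others.

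The difference between the line means of these medians was 0.24 for DT40subNB, 0.26 for DKFZ426, 0.14 for Pat and -0.03 for C00041. The two-sided exact permutation p over the 4 arrays was 0.667 for the first 3 and 1.00 for C00041 (adjusted 0.889 and 1.00 over 4 tests). With 2 arrays against 2 it cannot go below 0.333. Without the first Leghorn array the differences were -0.16 for DT40subNB, -0.05 for DKFZ426, -0.27 for Pat and 0.10 for C00041, each the opposite direction. Without the Fayoumi replicate array the Pat, DKFZ426 and C00041 differences also turned (-0.28, -0.01 and 0.04), and that of DT40subNB was 0.03.

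The shares were recomputed with the Leghorn signs turned. With the Leghorn replicate array turned, Fayoumi lay above without overlap for 52.1% of the DT40subNB, 46.0% of the DKFZ426, 45.4% of the Pat and 26.4% of the C00041 clones, against 32.3% of all probes. With both Leghorn arrays turned the shares were 41.5%, 34.7%, 35.8% and 20.6% in the same order, against 25.3% of all. With the first Leghorn array turned they were 23.0%, 17.2%, 11.3% and 21.2%, against 20.1%. In each of these settings the DT40subNB share was the highest of the 4 clone groups. The DT40subNB, DKFZ426 and Pat medians were positive on the Leghorn replicate array, so turning it lowered their Leghorn values. The order of the shares was not tested. In the opposite direction the shares with the Leghorn replicate array turned were 14.3%, 10.8%, 8.52% and 39.3%, against 31.8% of all. With both turned they were 7.51%, 5.29%, 4.99% and 19.6%, against 16%, and with the first turned 7.73%, 6.61%, 5.04% and 9.09%, against 8.35%.

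**Figure D4:**
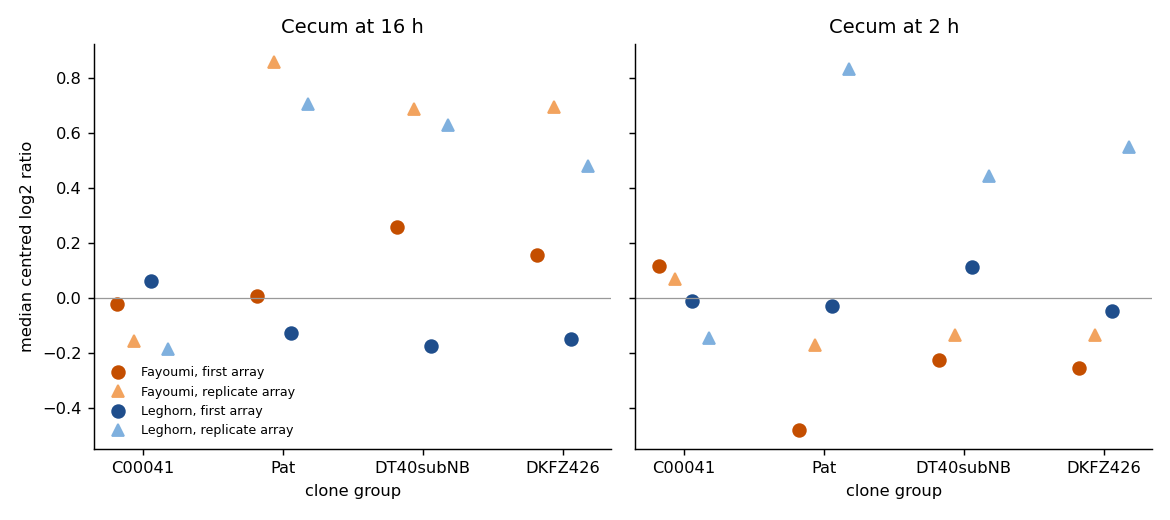
Median centred log2 ratio of each clone group on the single arrays of Fayoumi and Leghorn cecum at 16 h (left) and 2 h (right). Circles are first and triangles replicate arrays. At 16 h the DT40subNB median is 0.26 and 0.69 on the Fayoumi arrays and -0.18 and 0.63 on the Leghorn arrays. At 2 h the Leghorn replicate array has the highest value of the 3 smaller groups, 0.83 for Pat.

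The ratios also followed the well row in the clone identifiers, a letter that names a clone's place on its storage plate. Among the C00041 clones, with rows A to P and 696 to 720 clones in each, the median difference between the lines was highest in rows I (0.28) and A (0.25) and lowest in rows O (-0.14) and E and M (-0.12 each). It fell from row A to row D, where it was -0.09, and the same course began again at row I, with 0.16 in J, 0.03 in K and -0.10 in L. Fayoumi lay above Leghorn without overlap for 22.2% of the row A clones and 24.3% of the row I clones, against 10.6% in row D and 10.0% in row L, and 15.2% of all probes. The opposite direction was found for 2.92% and 3.61% in rows A and I and for 17.5% and 21.0% in rows D and L, against 10.1% of all. By plate the medians of the 30 C00041 plates ran from -0.09 to 0.19.

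All 4 arrays followed the well row, and the first Leghorn array did so the other way round. Row A and row O had medians of 0.36 and -0.22 on the first Fayoumi array, 0.00 and -0.27 on the Fayoumi replicate array and 0.26 and -0.61 on the Leghorn replicate array. On the first Leghorn array they were -0.32 and 0.37. The DT40subNB clones name rows A to H, except for 70 that name no row, and repeated every 4 rows. The median differences were 0.57 in A and 0.54 in E, and 0.09 in D and 0.11 in H. The Pat clones did the same with 0.34 in A and 0.26 in E, and -0.02 in both D and H. Well rows therefore moved with the line difference in these 3 clone groups. With the first Leghorn array turned the highest median difference of a C00041 row was in row P (0.37) and the lowest in row J (-0.04). With the Leghorn replicate array turned the range was wider than with no array turned, from -0.77 in row O to 0.50 in row A. The setting with 1946 probes past the threshold thus also had the widest range over rows. With both Leghorn arrays turned it ran from -0.36 in row O to 0.17 in row A.

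With the row medians removed on each array, 8 probes differed between the lines in limma's test (6, or 0.0384%, with higher ratios in Fayoumi and 2, or 0.0128%, in Leghorn), a setting chosen after seeing the data. DKFZ426_9H18, DT40subNB_15, DT40subNB_18F8, DT40subNB_2H7, DT40subNB_8B8 and Pat_1G1 had higher ratios in Fayoumi, and DT40subNB_7B5 and Pat_4A2 in Leghorn. The identifier DT40subNB_15 names no well row, and the median of the 70 DT40subNB clones without a row was subtracted from it instead. Their differences were 2.75, 2.62, 2.16, 2.23, 2.54, 2.87, -2.03 and -3.95 in the same order, with limma adjusted p-values of 0.0431 for the first and second and 0.0453 for the others. DT40subNB clones made up 5 of the 8 (4 of 1798, or 0.222%, with higher ratios in Fayoumi and 1, or 0.0556%, in Leghorn) and 11.5% of all probes. With this setting both Fayoumi arrays lay above both Leghorn arrays for 21.9% of the DT40subNB clones and for 15.8% of all probes, and below for 14.5% and 14%.

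**Figure D5:**
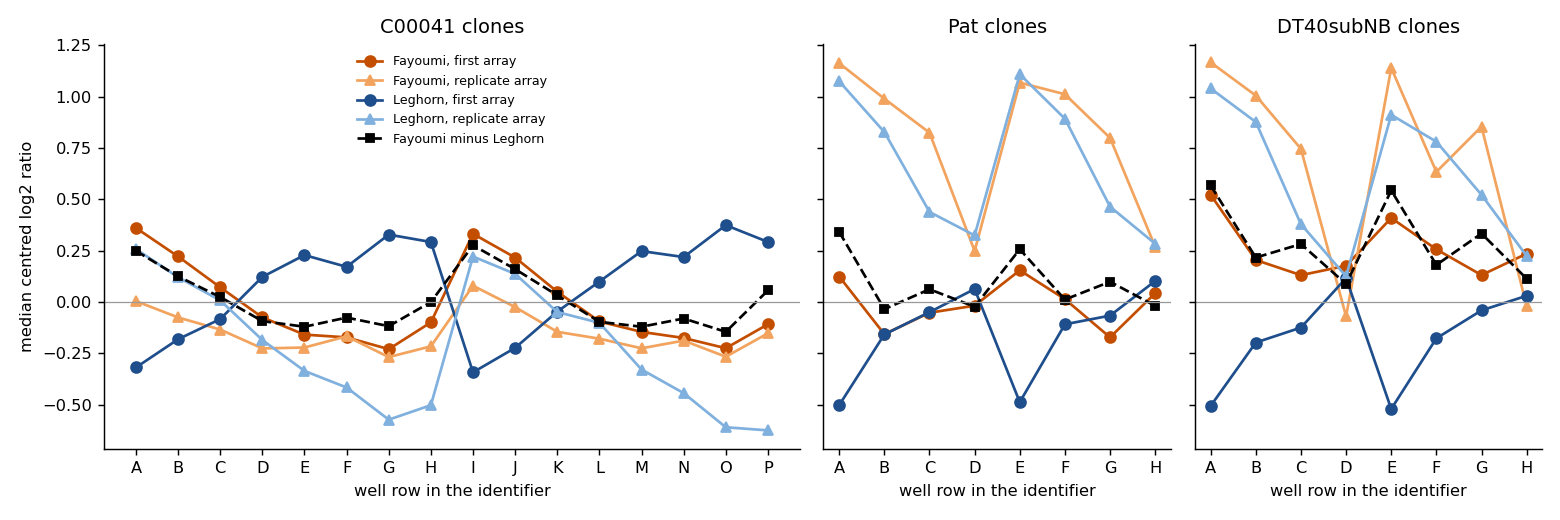
Median centred log2 ratio by well row for the C00041, Pat and DT40subNB clones on the 4 cecum arrays at 16 h (coloured lines), and the median Fayoumi minus Leghorn difference (black, broken). In the C00041 clones 3 arrays fall from row A towards row G and again from row I, while the first Leghorn array runs the other way, from -0.32 in row A to 0.33 in row G. In the Pat and DT40subNB clones the course repeats from row E.

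The same lines at 2 h gave a comparison that shares no array with 16 h. At 2 h 0 of 15609 probes (0%) differed between Fayoumi and Leghorn in limma's test (smallest adjusted p = 0.884, 691 probes or 4.43% at an unadjusted p below 0.05). Of the 691, 258 (1.65% of all) had higher ratios in Fayoumi and 433 (2.77%) in Leghorn. In a fit to the Fayoumi and Leghorn cecum arrays of that time alone, 2158 probes had an unadjusted p below 0.05 and none passed. The like count at 16 h was 492. With scaled arrays the counts were 1593 at 2 h and 1215 at 16 h, and with array weights 1874 and 613. Which time had more such probes thus depended on the fit. The lines did not overlap for a larger share at 2 h than at 16 h, with Fayoumi above for 4049 probes (25.9%) and below for 3911 (25.1%). Differences beyond 2 were rarer, with 11 probes above 2 and 15 below -2. The median absolute deviation at 2 h was 0.50 and 0.39 on the Fayoumi arrays and 0.39 and 0.60 on the Leghorn arrays. At 16 h it was 0.48 and 0.71 in Fayoumi and 0.52 and 0.94 in Leghorn, so a fixed cutoff also reflects the spread of the arrays.

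The line difference at 16 h did not differ from that at 2 h for any probe in limma's test (0 of 15609, smallest adjusted p = 0.447). An unadjusted p below 0.05 was found for 1148 probes (7.35%), of which 1003 (6.43% of all) had the larger Fayoumi minus Leghorn value at 16 h and 145 (0.929%) at 2 h. Across probes the differences at the 2 times had a Pearson correlation of -0.25 and a Spearman correlation of -0.27, a description of 8 arrays over probes that are not independent. Of the 15609 probes, Fayoumi lay above Leghorn at both times for 255 and below at both for 259. It was above at 16 h and below at 2 h for 871, and below at 16 h and above at 2 h for 503. Taken singly, the shares above and below were 15.2% and 10.1% at 16 h, and 25.9% and 25.1% at 2 h. Without the Leghorn replicate array at 16 h, 20 probes differed between the times, and with its sign turned 1400 did.

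The named probes were also read at 2 h, by their direction at 16 h. None of the 8 with higher ratios in Fayoumi at 16 h had a higher mean in Fayoumi at 2 h: DKFZ426_9H18 had -0.21 and -0.39 in Fayoumi and -0.05 and 0.03 in Leghorn, and Pat-18_g6 had -0.48 and -0.29 in Fayoumi and -0.37 and 0.52 in Leghorn. The lines overlapped at 2 h for 4 of these 8. Of all probes, Fayoumi lay above without overlap at 2 h for 25.9% and below for 25.1%. Of the 9 with higher ratios in Leghorn at 16 h, 6 had a higher Leghorn mean at 2 h as well. The median line difference of all probes at 2 h was -0.03, and these counts by direction were not tested against all probes. C0004113_B19 had -0.09 and 3.43 on the Leghorn arrays at 2 h and 1.04 and 0.57 on the Fayoumi arrays, so its high ratio was on 1 of 2 Leghorn arrays. Pat_4A2 had 1.07 and 3.08 in Leghorn and -1.03 and -0.21 in Fayoumi at 2 h, without overlap and with a difference of -2.70, the lowest of all probes at that time (limma adjusted p = 0.884). The smallest limma adjusted p for a change of the line difference between the times was 0.447 among the named probes.

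The clone groups lay on the other side at 2 h with all 4 arrays of 16 h in use, and on the same side without the first Leghorn array of 16 h, as given above. At 2 h the Fayoumi minus Leghorn difference of the medians was -0.73 for Pat, -0.46 for DT40subNB, -0.44 for DKFZ426 and 0.17 for C00041. Both Fayoumi arrays lay below both Leghorn arrays in the 3 smaller groups at 2 h, with Pat medians of -0.48 and -0.17 in Fayoumi and -0.03 and 0.83 in Leghorn. No test of this change over arrays was run, and which channel is the numerator was not settled at 2 h either.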

How the data were processed

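2-colour spotted arrays gave 1 value per probe and array. The authors deposited 1 table of 15769 rows, whose values are read here as log2 ratios of the 2 channels, with the base inferred from the values. The sources used here give no scanner, background correction, normalization or direction. Of the 24 columns, 1 (broiler cecum at 16 h, titled replicate) held 3 different values and 5960 blanks and was left out. The 160 control spots were removed and the median of the other 15609 probes was subtracted on each array.

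limma 3.58.1 in R 4.3.3 (lmFit, eBayes) was fitted to 23 arrays with a mean for each of 12 groups (11 residual degrees of freedom, so all groups share 1 spread), two-sided, with Benjamini-Hochberg adjustment over all probes and a threshold of 0.05. The number of arrays limits the precision. The model was tested on simulated data.

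Named probes were to be up to 12 per direction past the threshold without overlap between the lines. Where fewer than 8 passed, each direction was filled to 8 by smallest unadjusted p among probes without overlap. The first of each of 4 clone groups per direction and the PEN probes were added. The members and lists were chosen with earlier results of these data known. No identifier matched the reference gene table (0 of 15769), so the gene and cell marker lists could not be read. Alternatives were other sets of arrays, scaling, array weights, no centring, a replicate block, turned signs and each array left out. A plant spot covariate, a block within tissue and time and removal of well row medians within each clone group were added after seeing the data.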

Additional observations from a re-analysis of the deposited data

How the results depend on the processing

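For the count of probes that differ between the lines at 16 h, 0 stayed 0 with the cecum arrays alone, the compared arrays alone, scaled arrays, array weights, values as deposited, all replicate arrays turned and the first Leghorn array turned, with 241 to 1215 probes at an unadjusted p below 0.05 in limma's test. It became 1946 with the Leghorn replicate array turned, 475 with both Leghorn arrays turned, 225 with the plant spot covariate and 8 with well rows removed. Leaving out 1 of the 23 arrays gave 0 to 63 at 16 h, above 0 only without the Leghorn replicate array at 16 h. It gave 0 to 0 at 2 h and 0 to 20 for the change between times, above 0 only without the same array. The change between times was 1400 with the Leghorn replicate array turned. The cause of these moves was not tested.

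A replicate block set per tissue, as planned, left 0 probes at 16 h. A replicate block set per tissue and time, added after seeing the data, gave 249 of all 15609 probes (237 with higher ratios in Fayoumi), with 292 for the change between times. Of the 20 named probes 13 passed in the latter setting, with limma adjusted p-values from 0.00388 to 0.0211, and 0 in the former. The 17 clone probes among the 20 were chosen for small p-values on the same arrays, so this count is no separate support for them. The labels do not say that arrays titled replicate belong together. Over all probes, the first minus replicate difference in Fayoumi had a Pearson correlation of 0.25 with that in Leghorn. Probes are not independent replicates.

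Centring shifts every line difference at 16 h by the same amount, and as deposited all were 0.39 higher. The C00041 difference was then 0.37, and that of PEN_c-rel 0.30. With the first Leghorn array turned the C00041 difference was 0.035, and with all replicate arrays turned the Pat difference was -0.0084. Leaving out 1 of the 4 arrays gave -0.15 to 0.10 for C00041, -0.28 to 0.57 for Pat, -0.16 to 0.65 for DT40subNB and -0.053 to 0.57 for DKFZ426, and -0.31 to 0.13 for PEN_c-rel.

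Among the named probes those that changed direction had these differences. With all replicate arrays turned they were 0.73 for C0004113_B19, 0.022 for C0004123_P24, 0.11 for C0004125_O7, 0.27 for DKFZ426_16E7, 0.59 for DT40subNB_7B5, 0.31 for PEN_c-rel and 0.44 for PEN_TF-10. With the Leghorn replicate array turned they were 0.73 for C0004113_B19, 0.69 for C0004125_O7, 0.17 for DKFZ426_16E7, 1.18 for DT40subNB_7B5, 1.17 for Pat_4A2, 0.83 for Pat_8G10 and 0.19 for PEN_TF-10. With the first Leghorn array turned they were 0.46 for C0004118_E19, 0.015 for C0004118_K8 and 0.019 for DT40subNB_7B5. With both Leghorn arrays turned they were 4.46 for C0004113_B19, 1.18 for C0004118_E19, 1.42 for C0004118_K8, 0.59 for C0004123_P24, 2.30 for C0004125_O7, 0.45 for DKFZ426_16E7, 2.96 for DT40subNB_7B5, 3.90 for Pat_4A2, 2.35 for Pat_8G10 and 0.43 for PEN_TF-10.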

Other observations

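The first broiler cecum array at 16 h belongs to no comparison above, since the second column of its group held no ratios. Across probes it correlated at -0.16 and -0.13 with the Fayoumi arrays, at 0.15 with the first Leghorn array and at -0.15 with the Leghorn replicate array. The 499 probes that were positive in Fayoumi had a median log2 ratio of -0.07 on it, with quartiles of -0.49 and 0.27. Of the 8 named probes with higher ratios in Fayoumi 4 were above 0 on it, and of the 9 with higher ratios in Leghorn 3 were. By the centring, the median of all probes on this array is 0, and these counts were not tested against that. C0004113_B19 was at -0.76 and Pat_4A2 at -0.34 on this array.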
